A study of Mus musculus with 3 samples.

Results

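A set of 10 genes of granulocytes and macrophages was followed through open chromatin maps of MEL cells: Csf3r, Csf1r, Cebpa, Cebpe, Mpo, Elane, Lyz2, Fcgr1, Cd68 and Itgam. These 10 of 21851 protein-coding genes were taken as a list of names; the rule itself uses no measured value, but the names were chosen with earlier results of these data known. A peak was counted for a gene when its centre was at most 1000 bp away from any protein-coding start of that gene (a promoter peak), elsewhere in the annotated gene (a gene peak), or within 50 kb on either side (a flank peak). By this rule the 10 loci held 514 of 281600 peaks in the replicate 1 list and 162 of 89046 in the replicate 2 list.

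MEL is an immortalised mouse erythroleukemia line, made of cells halted early on the way to red cells. The labels give 1 condition, with no treatment or genotype contrast, and 3 DNase-seq libraries in 2 biological replicates. Replicate 1 had 2 libraries, called together as 1 list after merging, and replicate 2 had 1 library and 1 list, so neither replicate has an error of its own and no test between samples exists. Each peak, 150 bp wide in most cases, carries the authors' whole-number score from 1 to 150, whose unit is not given in the sources used here. The replicate 1 list is longer and its scores run higher, with a median of 73 in replicate 1 and 32 in replicate 2, so pairs of scores are ranks within their own list and do not compare the replicates. Read depth is unknown. Of 6 erythroid marker genes, 6 had a promoter peak in replicate 1 and 5 in replicate 2, beside 58.3% and 49.4% of all protein-coding genes. At the promoter, Gata1, the master regulator of red cells, scored 141 in replicate 1 and 71 in replicate 2, and the globin gene Hbb-bt 128 and 40. The heme enzyme gene Alas2 scored 85 in replicate 1 with no promoter peak in replicate 2. Its strongest gene peak scored 147 in replicate 1 and 94 in replicate 2. For 4 fibroblast genes the number with a promoter peak was 3 in replicate 1 and 2 in replicate 2. Col1a1 scored 132 in replicate 1 and 35 in replicate 2, and Pdgfra 127 and 34. Col1a2 scored 85 in replicate 1 with no promoter peak in replicate 2, and Dcn had none in either list.

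DNase I cuts DNA where nucleosomes have been displaced, so peaks mark promoters and enhancers that proteins can reach. Granulocytes and macrophages arise from a common progenitor under colony-stimulating factor receptors and transcription factors of the C/EBP family, which act with the ETS factor PU.1. Developing granulocytes fill primary granules with enzymes such as myeloperoxidase and neutrophil elastase, while macrophages carry Fc receptors, integrins and a large lysosomal compartment. These are not typical products of red cell precursors, to which MEL cells are likened.

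Open chromatin at the starts of these genes was common in MEL cells. A promoter peak was present at 9 of 10 genes in replicate 1, where 58.3% of all protein-coding genes had one, and at the same 9 in replicate 2, where the share over all genes was 49.4%. All 9 were in both lists, as were 49.4% of all protein-coding genes. Elane was the exception in both. A count over 10 genes is coarse, and such a count is read by the kind of promoter, since promoters rich in CpG tend to be open in any cell. CpG-poor promoters belong to 9 of the 10 genes, which stand in groups 1 and 2 of 5 equal groups ordered by the ratio of observed to expected CpG. Of those 9, 8 had a promoter peak in each list, whereas among the 8741 genes in the same groups promoter peaks were present at 30.4% for replicate 1 and 17.7% for replicate 2. Only Cebpa, with a ratio of 0.889, lies in the group richest in CpG. All 4 fibroblast genes named above are also in groups 1 and 2, with a promoter peak at 3 in replicate 1 and 2 in replicate 2. So are 5 of the 6 erythroid genes, with one at 5 in replicate 1 and 4 in replicate 2. Counts above the share of these groups were therefore not particular to the 10 genes.

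The height of the promoter peaks was near that over all genes with a promoter peak, a set not matched for CpG content. The median over the 9 genes was 141 in replicate 1, against 139 over all genes with a promoter peak, and 55 in replicate 2, against 63. Within this middle the genes spread widely, from 120 to 150 in replicate 1 and from 24 to 109 in replicate 2. Cd68 and Fcgr1 were the highest of the 9 in both lists, and Mpo, Csf1r and Lyz2 were the 3 lowest in both.

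**Figure D1:**
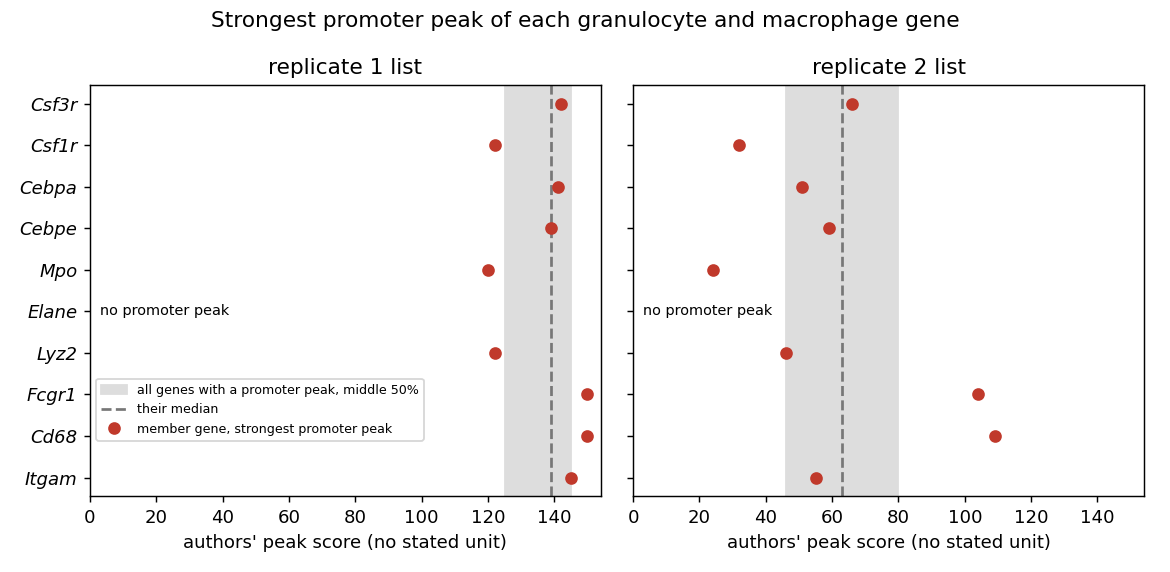
Strongest promoter peak of each gene (rows) as the authors' score (horizontal axis), in the replicate 1 list on the left and the replicate 2 list on the right. The grey band holds the middle 50% of all protein-coding genes with a promoter peak and the dashed line is their median; Cd68 and Fcgr1 lie above the band in both lists, Csf1r and Mpo below it in both, and Elane has no point.

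The sequences just before the first annotated start are given for the genes with the 2 highest promoter scores, Cd68 and Fcgr1, for the lowest, Mpo, for Elane, which had no peak, and for Itgam, which had 2 PU.1 matches and a middle score. They are windows beside the start and not the peaks themselves, which overlap them in part. Each is the 150 bases that end 1 base before the start, read on the gene's strand from the GRCm38.p6 genome, the same build as mm10, and none overlaps an annotated exon. Capitals mark matches, on either strand, to 7 short motifs. The ETS factor PU.1, which Spi1 encodes, was searched as GAGGAA, and the C/EBP family as TTGCNNAA. The erythroid and megakaryocyte GATA factors were searched as AGATAA, and RUNX factors, active across blood cells, as TGTGGT. The progenitor factor MYB was searched as TAACNG, the KLF family as CCNCNCCC, and the Jun and Fos pair AP-1 as TGANTCA. Cd68, a lysosomal membrane protein of macrophages, is at chr11:69666154-69666303 on the minus strand, with 1 C/EBP and 1 AP-1 match. Fcgr1, the high-affinity receptor for IgG, is at chr3:96293970-96294119 on the minus strand, with 1 PU.1 match read on the opposite strand. Itgam, the integrin chain CD11b, is at chr7:128062490-128062639 on the plus strand, with 2 PU.1 matches. Mpo, which encodes myeloperoxidase, is at chr11:87793431-87793580 on the plus strand, with 2 PU.1, 1 GATA, 1 RUNX and 1 MYB match, the GATA match directly before the first PU.1 match. Elane, which encodes neutrophil elastase, is at chr10:79886097-79886246 on the plus strand and holds 1 PU.1 match although no peak was called there.
Cd68: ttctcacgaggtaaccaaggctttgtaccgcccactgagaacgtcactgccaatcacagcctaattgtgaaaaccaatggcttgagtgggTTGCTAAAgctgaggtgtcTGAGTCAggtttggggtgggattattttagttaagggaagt
Fcgr1: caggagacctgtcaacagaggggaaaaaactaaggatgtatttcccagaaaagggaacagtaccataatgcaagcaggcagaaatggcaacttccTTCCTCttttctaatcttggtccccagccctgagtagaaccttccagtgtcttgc
Itgam: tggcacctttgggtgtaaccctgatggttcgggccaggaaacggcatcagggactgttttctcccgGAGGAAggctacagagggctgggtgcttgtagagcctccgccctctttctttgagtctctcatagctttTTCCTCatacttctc
Mpo: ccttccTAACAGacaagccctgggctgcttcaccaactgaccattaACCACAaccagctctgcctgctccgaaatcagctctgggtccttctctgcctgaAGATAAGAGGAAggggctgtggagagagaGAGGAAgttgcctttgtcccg
Elane: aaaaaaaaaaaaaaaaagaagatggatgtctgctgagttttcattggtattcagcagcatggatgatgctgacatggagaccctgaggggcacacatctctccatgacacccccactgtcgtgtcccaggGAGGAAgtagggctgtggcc

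Across the 10 genes, 5 had a PU.1 match in these 150 bases (Cebpe, Mpo, Elane, Fcgr1 and Itgam), where 14.2% of all 21851 protein-coding genes did. RUNX matches stood in 2 of the 10 windows (7.62% of all genes), MYB in 3 (10.3%), AP-1 in 2 (3.45%), and C/EBP (4.83%), GATA (4.68%) and KLF (44.6%) in 1 each. Csf3r and Cebpa had none of the 7. The shares over all genes are not matched for CpG content or base composition. A match is a run of letters and says nothing of whether a factor was bound.

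Several of the strongest peaks lay away from the start, and the sequences of 4 of them are given because the results below return to them. Each is the replicate 2 peak, on the gene's strand, and overlaps no annotated exon. The Cebpe peak lies 6.2 kb past the start, downstream of the gene, at chr14:54705916-54706065 on the minus strand, with 2 C/EBP and 2 GATA matches. The Itgam peak lies 13.7 kb before the start at chr7:128048876-128049025 on the plus strand, with 1 PU.1, 1 AP-1 and 1 GATA match. The Cebpa peak lies 5.7 kb past the first start, downstream of the gene, at chr7:35124876-35125025 on the plus strand, with 1 RUNX and 1 PU.1 match. The Csf3r peak lies in an intron at chr4:126028096-126028245 on the plus strand, with 1 PU.1 match, 1 GATA match and 4 overlapping KLF matches in a run of G.
Cebpe, downstream: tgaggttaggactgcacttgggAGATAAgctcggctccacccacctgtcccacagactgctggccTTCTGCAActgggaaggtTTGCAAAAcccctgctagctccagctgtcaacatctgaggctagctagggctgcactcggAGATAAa
Itgam, upstream: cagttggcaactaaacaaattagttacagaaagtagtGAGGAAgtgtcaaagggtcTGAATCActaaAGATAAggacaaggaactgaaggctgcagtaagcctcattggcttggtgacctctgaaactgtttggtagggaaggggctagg
Cebpa, downstream: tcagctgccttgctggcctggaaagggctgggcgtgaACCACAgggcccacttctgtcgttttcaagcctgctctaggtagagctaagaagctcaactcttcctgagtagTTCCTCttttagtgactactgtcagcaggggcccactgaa
Csf3r, intron: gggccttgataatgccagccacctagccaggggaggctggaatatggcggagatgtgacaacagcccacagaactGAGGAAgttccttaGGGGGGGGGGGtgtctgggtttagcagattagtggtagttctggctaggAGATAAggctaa

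Csf3r encodes the receptor for granulocyte colony-stimulating factor (ENSMUSG00000028859.14, chromosome 4, 126024550 to 126044440, plus strand). Its strongest promoter peak scored 142 in replicate 1 and 66 in replicate 2, and it is the intronic peak printed above. That peak lies 3621 bp past the first start and 879 bp past the next one, so it counts as a promoter peak only through the later start. At the first start itself the replicate 1 list had weaker peaks of 94, at 141 bp, and 75, at 541 bp, and the replicate 2 list had none. No hotspot, the authors' broader enriched region, covered a Csf3r start in either list. A further intronic peak, 6.4 kb past the first start in replicate 1 and 6.3 kb past it in replicate 2, scored 130 and 57.

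The flanks of Csf3r were weak in replicate 2. Their median score was 18, above that of 11% of genes, and 79 in replicate 1, near the all-gene median of 77. The strongest flank peaks in replicate 2 stood at other genes, with 61 at 14 bp from the start of Mrps15 and 58 at 54 bp from that of Oscp1.

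Csf1r encodes the receptor for macrophage colony-stimulating factor (ENSMUSG00000024621.16, chromosome 18, 61100598 to 61132149, plus strand). Its promoter peak scored 122 in replicate 1 and 32 in replicate 2, and 22.3% and 10.1% of genes with a promoter peak scored lower in the replicate 1 and replicate 2 lists. In both lists this peak sat at the later of its protein-coding starts, 21 bp before it in replicate 1 and 1 bp before it in replicate 2. The annotated gene begins before the first protein-coding start, at 61105572, from which the distances given for this gene are counted. Elsewhere in the gene, a far longer stretch than the promoter windows, 12 gene peaks were called in replicate 1 and 3 in replicate 2.

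The strongest Csf1r gene peak scored 146 in replicate 1 and 73 in replicate 2, in an intron 22.2 kb past the first start. Another intronic peak scored 130 in replicate 1 and 43 in replicate 2, at 15.2 kb. Csf1r is known for an enhancer early in the gene, called FIRE, that serves macrophages. The files do not name that element; in the early introns, peaks of 112, 75 and 92 were called in replicate 1 at 2.2, 2.6 and 3.1 kb past the first start, and only the first of them was overlapped in replicate 2, by a peak of 20.

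Cebpa and Cebpe encode C/EBP transcription factors, Cebpa acting at the entry to the granulocyte and macrophage lineage and Cebpe late in granulocyte maturation. The Cebpa promoter peak (ENSMUSG00000034957.10, chromosome 7, 35119293 to 35121928, plus strand) scored 141 in replicate 1 and 51 in replicate 2, 102 bp before the first start in both. It stood in a broad hotspot of 7118 bp in replicate 1 that ran past the end of the gene, and in one of 355 bp in replicate 2. In an untranslated exon a further peak scored 128 in replicate 1 and 41 in replicate 2.

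Outside the gene, Cebpa had 57 flank peaks in replicate 1 and 9 in replicate 2. The downstream peak printed above scored 137 in replicate 1 and 63 in replicate 2. Upstream peaks scored 141 and 59 at 20.3 kb before the start, and 141 and 55 at 26.6 kb, in replicate 1 and replicate 2. Farther downstream, peaks scored 137 in replicate 1 and 53 in replicate 2 at 31.8 kb, and 133 and 47 at 37.5 kb, where the start of Slc7a10 was nearer. A myeloid enhancer is known far downstream of Cebpa in mice; the files do not name it, and no peak is identified with it here. Of all peaks at the locus, 74.6% in replicate 1 (47 of 63, Wilson 95% interval 62.7 to 83.7%) had Cebpa as the nearest protein-coding start, the highest share of the 10 genes.

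The Cebpe promoter (ENSMUSG00000052435.7, chromosome 14, 54710360 to 54712174, minus strand) scored 139 in replicate 1 and 59 in replicate 2, 37 bp before the start in both lists. The gene body held 0 peaks in either list. Its strongest peak lay outside the gene: the downstream peak with 2 C/EBP and 2 GATA matches scored 148 in replicate 1 and 106 in replicate 2, where 99.4% of the list scored lower. No other start was nearer to it. Over all replicate 2 peaks, 7.06% held a C/EBP match and 15.6% a GATA match. Upstream, a peak 2.7 kb before the start scored 146 in replicate 1 and 63 in replicate 2.

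The flanks of Cebpe were high as a whole, with a median of 108 in replicate 1 and 60 in replicate 2. Some of these peaks stood at other genes, such as a replicate 2 peak of 93 that lay 60 bp from the start of Acin1. Of the 13 replicate 2 peaks at the locus, 8 had Cebpe as their nearest start.

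Among the granule protein genes, Mpo (ENSMUSG00000009350.13, chromosome 11, 87793581 to 87804413, plus strand) had the weakest promoter peak of the 9. It scored 120 in replicate 1 and 24 in replicate 2, where 4.8% of genes with a promoter peak scored lower. Its centre lay 70 bp before the first start in replicate 1 and 50 bp before it in replicate 2. A peak 3.3 kb upstream was higher in both lists, with 136 in replicate 1 and 65 in replicate 2. The 26 replicate 2 peaks at the locus were mostly a dense group far upstream, where the strongest, of 103, was nearest to the start of Tspoap1.

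Elane (ENSMUSG00000020125.7, chromosome 10, 79886247 to 79888215, plus strand) had 0 promoter peaks, 0 gene peaks and no hotspot over its start in either list. The nearest replicate 1 peak, of 56, lay 1096 bp before the start, just outside the window, and the nearest replicate 2 peak, of 54, lay 2416 bp before it. Replicate 1 had a peak of 135 beside the last of these, 2.4 kb before the start. Of the 32-base words in its promoter window, 85.7% occur once in the genome, and in the gene 100%. The locus was otherwise rich in peaks, with 65 in replicate 1 and 20 in replicate 2, but 5 and 2 of them had Elane as the nearest start. The strongest in replicate 2, of 107, lay 4 bp from the start of Ptbp1, which encodes a splicing factor, and a peak of 67 lay nearest to Prtn3, the neighbouring gene for another primary granule protease.

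Lyz2, the lysozyme gene of macrophages and granulocytes (ENSMUSG00000069516.8, chromosome 10, 117277331 to 117282321, minus strand), had the fewest peaks of the 10, 13 in replicate 1 and 5 in replicate 2. Its promoter scored 122 in replicate 1 and 46 in replicate 2, at 30 bp and 50 bp before the start. An upstream peak 2.8 kb before the start scored 118 in replicate 1 and 30 in replicate 2. The strongest peak of the locus, 140 in replicate 1 and 58 in replicate 2, lay 19.6 kb upstream and was nearer to Lyz1, a close copy of Lyz2. Of the 32-base words in the Lyz2 promoter window 84% occur once in the genome, close to the share at Elane, and 8.07% also stand at Lyz1. In the Lyz2 gene 64.6% occur once and 28.6% also stand at Lyz1, so its gene peaks are uncertain.

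Of the surface and lysosome genes, Cd68 (ENSMUSG00000018774.13, chromosome 11, 69664213 to 69666153, minus strand) had the highest promoter score of the 10 in replicate 2, 109, and 150 in replicate 1, the highest value of the scale. In replicate 2, 97.8% of genes with a promoter peak scored lower. Its peak centre lay 118 bp before the first start in replicate 1 and 78 bp before it in replicate 2. Cd68 lies among closely packed genes, and the strong flank peaks stood at their starts, with 115 in replicate 2 at Fxr2, 92 at Eif4a1 and 87 at Mpdu1. Of the 11 replicate 2 peaks at the locus, 1 had Cd68 as the nearest start.

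Fcgr1 (ENSMUSG00000015947.10, chromosome 3, 96282909 to 96293969, minus strand) scored 150 in replicate 1 and 104 in replicate 2, both 2 bp before the start. Its surroundings were high too. The flanks held 112 peaks in replicate 1 with a median score of 113, and 32 in replicate 2 with a median of 70, while the medians over all genes were 77 and 33.5. Flank medians were lower in 98.3% of genes in replicate 1 and in 99.1% in replicate 2. Peak density was 106 per 100 kb in replicate 1 and 31.5 in replicate 2, higher than at 99.9% and 99.8% of genes. The strongest flank peak in replicate 2, of 131, was nearest to the histone gene Hist2h2bb. Between 95 and 98 Mb of the chromosome the median score over all peaks was 102 in replicate 1 and 52 in replicate 2, against 71 and 31 on the rest of it. The part of this stretch in the Fcgr1 promoter score was not tested. Without Fcgr1, 8 of 9 genes had a promoter peak in each list and the median promoter score was 140 in replicate 1 and 53 in replicate 2, an alternative added after the data were seen.

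Itgam (ENSMUSG00000030786.18, chromosome 7, 128062640 to 128118491, plus strand) scored 145 in replicate 1 and 55 in replicate 2 at its promoter, with centres 11 bp and 2 bp past the nearest start. The upstream peak printed above was higher, at 148 in replicate 1 and 100 in replicate 2, where 98.9% of the list scored lower, and Itgam was its nearest start. Inside the gene 10 peaks were called in replicate 1 and 5 in replicate 2, the most of the 10 genes in replicate 2. Intronic peaks scored 139 in replicate 1 and 64 in replicate 2 at 3.1 kb past the first start, 137 and 55 at 5.4 kb, and 135 and 48 at 26.7 kb. A second annotated gene, Gm49368, shares one of the annotated starts of Itgam and runs through it. The nearest start to these 3 peaks belongs to both genes, and such ties, 6 in replicate 1 and 3 in replicate 2, were counted for Gm49368. Beyond the gene, a replicate 2 peak of 85 was nearest to Itgax, the neighbouring integrin gene.

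**Figure D2:**
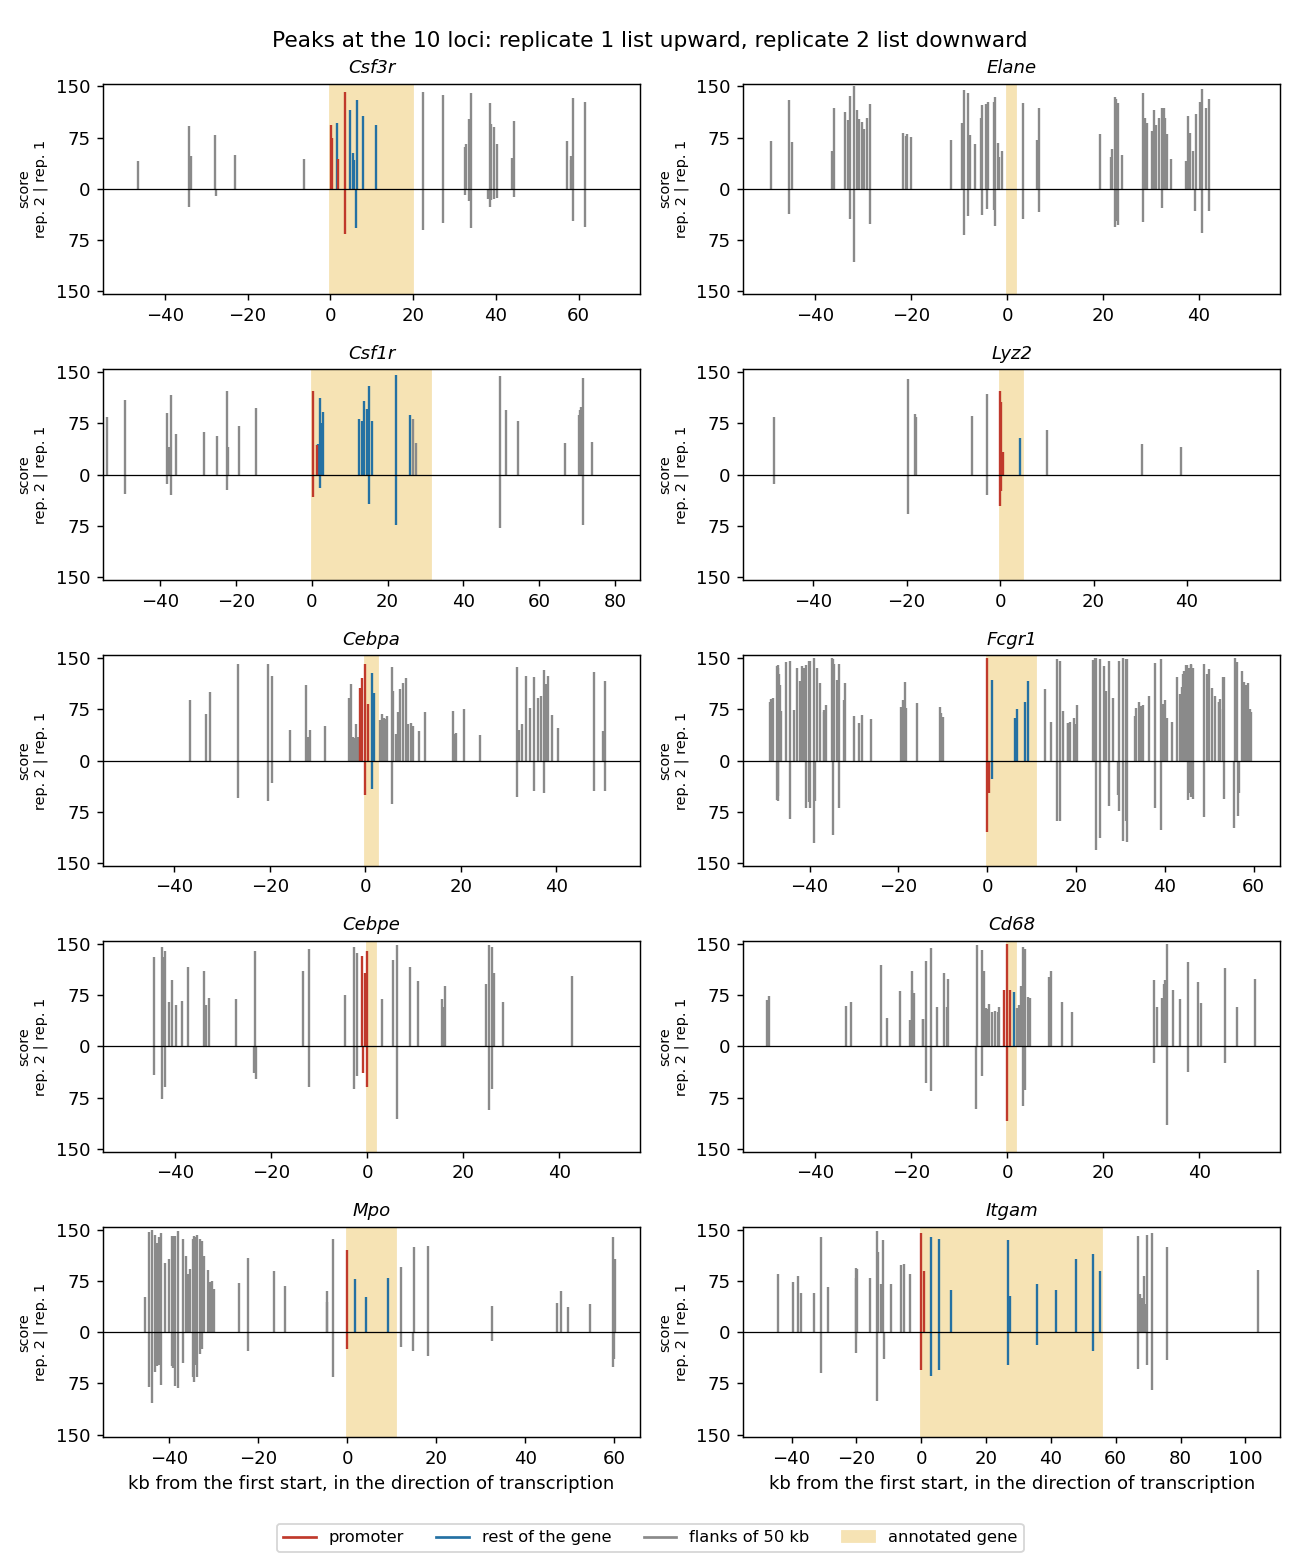
Every peak at the 10 loci by distance in kb from the gene's first start, in the direction of transcription (horizontal axis), with its score as a line drawn upward for the replicate 1 list and downward for the replicate 2 list (vertical axis). Red marks promoter peaks, blue other peaks in the gene and grey flank peaks. The shaded band is the length of the annotated gene, drawn from the first protein-coding start. At Csf1r the annotated gene begins before that start, so its band is shifted downstream and covers flank peaks at 26.6 and 27.4 kb. The dense grey groups are at Fcgr1 and upstream of Mpo, and Elane has no red or blue line.

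Peaks were more numerous around these genes than around most. The median per locus was 45 in replicate 1 and 13.5 in replicate 2, against 28 and 9 over all protein-coding genes. Gene peaks were called at 8 of 10 genes in replicate 1 (68.8% of all genes) and at 5 of 10 in replicate 2 (46.3%), shares near those over all genes. Most locus peaks did not belong to the gene by distance: 38.1% in replicate 1 (196 of 514, Wilson 95% interval 34.0 to 42.4%) and 32.1% in replicate 2 (52 of 162, 25.4 to 39.6%) had it as their nearest start. These intervals cover counting over peaks only. Locus counts therefore describe neighbourhoods. Of promoter peaks, 22 of 23 in replicate 1 and 12 of 12 in replicate 2 had the gene as their nearest start. Of gene peaks it was 31 of 41 and 6 of 11, where ties at Itgam were counted for Gm49368.

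**Figure D3:**
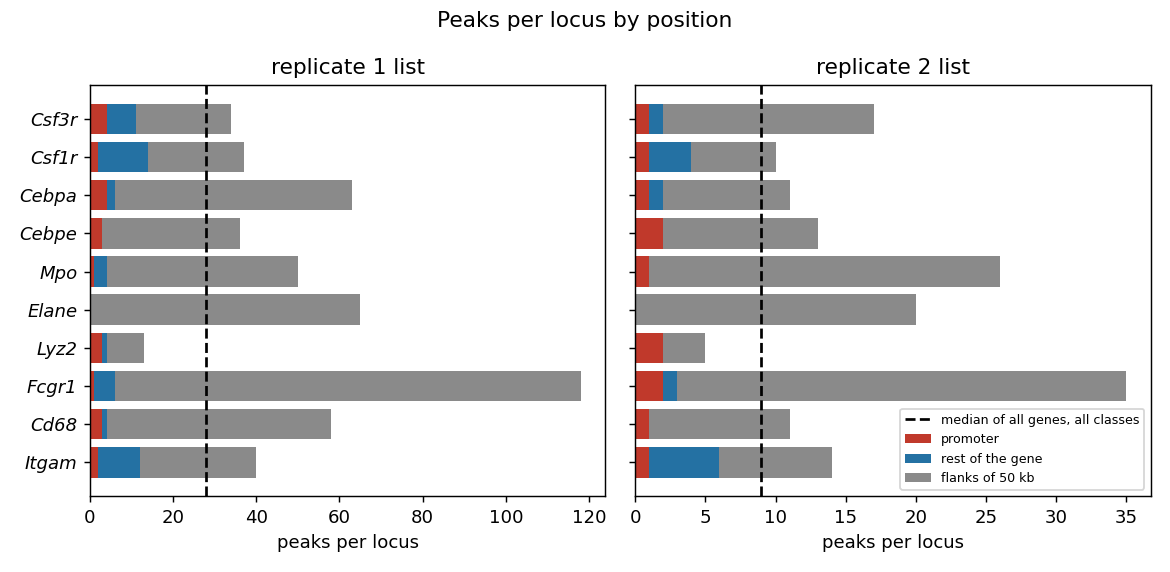
Number of peaks per locus (horizontal axis) for each gene (rows), split into promoter, rest of the gene and flanks, in the replicate 1 list on the left and the replicate 2 list on the right; the horizontal scales differ. The dashed line is the median total over all protein-coding genes, 28 in replicate 1 and 9 in replicate 2; Lyz2 is the only one of the 10 below it in either list.

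**Figure D4:**
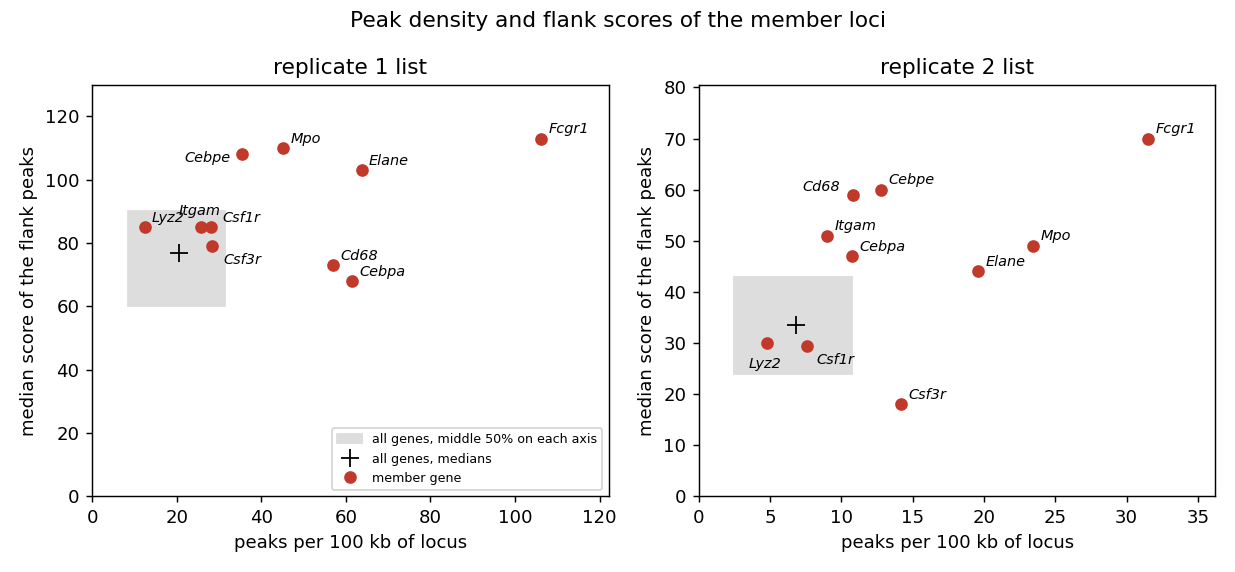
Peaks per 100 kb of locus (horizontal axis) and the median score of the flank peaks (vertical axis) for each gene, in the replicate 1 list on the left and the replicate 2 list on the right. The grey box spans the middle 50% of all protein-coding genes on each axis and the cross marks their medians; Fcgr1 is the highest of the 10 on both axes in both lists, and Csf3r has the lowest flank median in replicate 2, 18.

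The lists overlapped at these loci as they did elsewhere. Of the replicate 2 locus peaks, 95.7% (155 of 162, Wilson 95% interval 91.4 to 97.9%) touched at least 1 replicate 1 peak, against 94.6% of all replicate 2 peaks. In the other direction 30.2% (155 of 514, 26.3 to 34.3%) were overlapped, against 30.2% of all replicate 1 peaks. The replicate 1 peaks at the 10 loci that replicate 2 overlapped had a median score of 137, and the rest had 79. By class the overlap was also near that over all peaks. In replicate 1 it was 47.8% of promoter peaks (11 of 23), against 49.5% of all peaks at protein-coding starts, and 26.8% of gene peaks (11 of 41), against 27.1% of all other peaks in protein-coding genes.

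PU.1 motifs were frequent in the promoter and gene peaks of these genes. A match was found in 43.8% of such peaks in replicate 1 (28 of 64, Wilson 95% interval 32.3 to 55.9%), against 28.7% of all peaks at a promoter or in a gene. In replicate 2 it was 52.2% (12 of 23, 33.0 to 70.8%) against 30.9%. Over whole loci, flanks included, the share was 29.4% in replicate 1, near the 29.9% of all peaks, and 38.3% in replicate 2, against 32.6%. RUNX matches stood in 25% of the promoter and gene peaks in replicate 1 (16.0 to 36.8%) against 15.0%, and in 17.4% in replicate 2 (6.98 to 37.1%) against 14.5%. The comparison share thus lay below the interval for PU.1 in both lists and for RUNX in replicate 1 alone, out of 7 motifs looked at in each list. For C/EBP, GATA, MYB, KLF and AP-1 the comparison share lay inside the interval in both lists; for AP-1 in replicate 1 and replicate 2 it was near the lower edge, at 7.77% for an interval of 7.58 to 24.6% and at 7.74% for one of 6.98 to 37.1%. At least 1 of PU.1, C/EBP, GATA and RUNX was present in 65.6% of promoter and gene peaks in replicate 1 (53.4 to 76.1%) and in 73.9% in replicate 2 (53.5 to 87.5%), against 50.6% and 52.2% of all peaks at a promoter or in a gene. The peaks were spread unevenly: of the 41 gene peaks in replicate 1, Csf3r held 7, Csf1r 12 and Itgam 10, while Elane held none. These shares are therefore over peaks and not per gene. The comparison peaks are not matched for CpG content or base composition. Peaks of 1 gene and peaks shared by the lists are not independent, and of 100 matches in the replicate 1 peaks 7 overlapped a match to another motif.

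**Figure D5:**
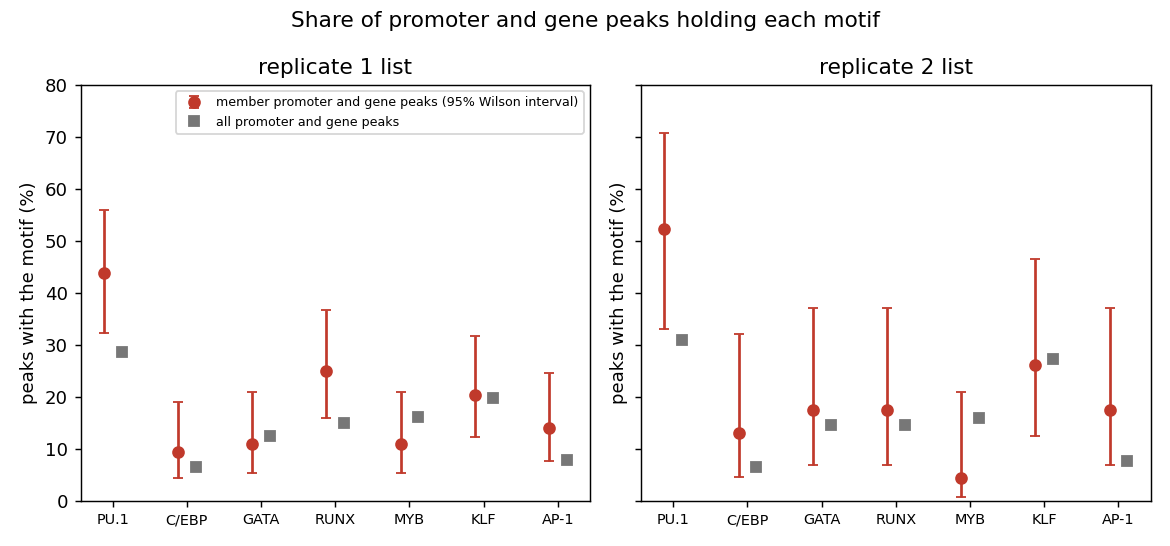
Percent of peaks that hold each of 7 motifs (vertical axis), for promoter and gene peaks of the 10 genes (red, with 95% Wilson intervals over peaks) and for all promoter and gene peaks (grey), in the replicate 1 list on the left and the replicate 2 list on the right. The PU.1 share is 43.8% in replicate 1 and 52.2% in replicate 2, above the grey squares at 28.7% and 30.9%.

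A wider list of 44 other myeloid genes was counted in the same way. A promoter peak was present at 33 of 44 in replicate 1 (75%) and at 24 in replicate 2 (54.5%), beside 58.3% and 49.4% of all protein-coding genes, so the replicate 2 share was near that of all genes. In the 31 of them with CpG-poor promoters (groups 1 and 2), 25 had one in replicate 1 and 16 in replicate 2, beside 30.4% and 17.7% of all genes in those groups. Among growth factor receptors 5 of 6 had one in replicate 1 and 4 in replicate 2, among them Il6ra, an interleukin receptor gene, with 144 in replicate 1 and 83 in replicate 2. Csf2rb, for the signalling chain that several myeloid cytokine receptors share, scored 147 and 73, and Csf2ra, for a partner chain, had none. Transcription factors had one at 3 of 6 in both lists, with Cebpb at 131 in replicate 1 and 39 in replicate 2 and Cebpd at 130 and 33, and none at Irf8 and Klf4, which act in monocytes.

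Granule genes were counted by class. Of 6 primary granule genes, 5 had a promoter peak in replicate 1 and 3 in replicate 2, among them the protease gene Ctsc, with 142 in replicate 1 and 78 in replicate 2, and Cst7, with 141 and 68; Ctsg, the gene of cathepsin G, had none. Secondary granule genes, which are switched on late in granulocyte maturation, had one at 3 of 6 in replicate 1 and at 0 of 6 in replicate 2. Camp and Lcn2 of that group had none in either list. All 6 secondary and 5 of the 6 primary granule genes have CpG-poor promoters, for which the shares over all genes were the 30.4% and 17.7% given above. Of those 5 primary granule genes, 4 had a promoter peak in replicate 1 and 2 in replicate 2. With 6 genes in each group the counts were not tested against each other.

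Fc receptor and integrin genes had a promoter peak at 6 of 6 in replicate 1 and 5 in replicate 2, with Itgb2, the partner chain of Itgam, at 147 in replicate 1 and 86 in replicate 2, and the inhibitory receptor Fcgr2b at 144 and 84. Genes for the NADPH oxidase, which makes superoxide in phagocytes, had one at 5 of 6 in both lists. Rac2 scored 147 in replicate 1 and 85 in replicate 2 and Ncf4 144 and 69, while Cybb, the gene of the catalytic chain, had none. Macrophage surface and lysosome genes had one at 6 of 8 in replicate 1 and 4 in replicate 2. There the lysosomal membrane gene Lamp1, which many cell types use, scored 140 in replicate 1 and 73 in replicate 2. The mannose receptor gene Mrc1 scored 123 and 39, while Marco and Mertk had none. The shares over all protein-coding genes were 58.3% and 49.4%. CpG-poor promoters belong to 6 of 6, 5 of 6 and 6 of 8 genes of these groups, in the order given. Of those, 6, 4 and 5 had a promoter peak in replicate 1 and 5, 4 and 3 in replicate 2. Among all CpG-poor genes the shares were 30.4% and 17.7%.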

How the data were processed

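DNase-seq of MEL cells was analysed from 2 peak lists and 2 hotspot lists on mm10, per the labels. Per the deposited notes, replicate 1 was called on the merged alignment of its 2 libraries and replicate 2 on its 1 library. The aligner and caller are not given in the sources used here. The authors' peak score is a whole number of unstated unit. Hotspots, as deposited, list a −log10 q-value from 1.3 to 100, read so from the usual layout of such files, and were mainly used as positions.

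Exact repeats were dropped, 67 lines in replicate 1 and 7 in replicate 2. Genes came from GENCODE M21 basic and sequences from GRCm38.p6. Peaks were assigned by centre, first to promoters, then genes, then flanks. Motifs were searched in 150 bp around each peak centre. CpG content was taken within 500 bp of the first start, and unique words were 32 bases long. Peaks were counted as overlapped when they shared at least 1 bp. Software was numpy 2.4.6 and pandas 2.3.3 under Python 3.11.15; scipy was 1.17.1, and figures used matplotlib 3.10.9. Code was checked on simulated data.

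Members and gene lists were chosen with earlier results of these data known. All 10 members are named. Of the other genes in a role group, up to 2 with the highest replicate 2 promoter score and up to 2 with no promoter peak are named, and neighbours where theirs is the nearest start to a strong peak, some of these picked with values known. As each replicate has 1 list, no test between samples was possible. Alternatives were other promoter windows, starts, flanks, overlaps and motif windows, hotspots, and shorter lists. The B and T cell marker list is not reported here.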

Additional observations from a re-analysis of the deposited data

How the results depend on the processing

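The alternatives were run for the 10 genes and the other myeloid list, and the values over all genes and all peaks beside them were not recomputed. The counts of genes with a promoter peak stayed within 1.5 times under every alternative tried for them: 9 or 10 of the 10 genes in replicate 1 and 8 to 10 in replicate 2, from 8 with a 500 bp window, the first start alone or the higher-scoring 50% to 10 with a 2500 bp window, where Elane gained a peak. Those of the 44 other myeloid genes ranged from 28 to 36 in replicate 1 and from 21 to 27 in replicate 2. With either replicate alone the count was 9. At equal list length the median per locus in replicate 1 was 19.5, 59.7% of its locus peaks were overlapped, 33.2% were nearest to the gene itself, and 87.7% of replicate 2 locus peaks were overlapped. In the higher-scoring 50% of each list the replicate 1 median was 29 and 35.1% were overlapped. Flanks of 10 kb gave medians of 16.5 in replicate 1 and 5 in replicate 2, 97.9% of replicate 2 peaks overlapped, and own shares of 65.7% and 58.3%. Flanks of 100 kb gave 81.5 and 26.5 peaks, and own shares of 22.7% and 19.4%. When 50% of a peak had to be covered, 85.8% of replicate 2 peaks were overlapped. The share of promoter and gene peaks with 1 of 4 motifs was 85.9% in a 300 bp window and 42.2% in a 75 bp window. Wider flanks or windows and shorter lists change these values by construction. Shares were taken as moved outside their Wilson interval, and medians and counts beyond 1.5 times. A count of 9 of 10 genes could pass that limit only by falling. No paired analysis was possible because the results come from no test. Depth is unknown, so a promoter without a peak, as at Elane, means that none was called.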
